A study of Mus musculus with 18 samples.

Results

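The enzymes that write, copy and oxidise cytosine methylation were followed through 48 h of embryoid body differentiation with and without Msgn1 induction. The set was chosen by name and holds 8 of the 18193 genes that had a probe set of their own: the methyltransferases Dnmt1, Dnmt3a and Dnmt3b, the cofactor Dnmt3l, the maintenance factor Uhrf1, and the dioxygenases Tet1, Tet2 and Tet3. Every probe set annotated to exactly 1 of these symbols was taken, which gave 20 of the 34945 probe sets with 1 gene on the array. Of these 20, 19 passed a filter on dim signal (a group mean of at least 13.2 signal units in 1 group or more), out of 26049 that passed in all. The single Tet3 probe set did not pass. Dnmt3a had 5 probe sets, Tet1 had 4, Dnmt1 had 3, Dnmt3b, Uhrf1 and Tet2 had 2 each, and Dnmt3l and Tet3 had 1 each.

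The cells were A2lox-Flag-Msgn1 mouse embryonic stem cells of the 129P2 strain, grown on mitomycin-treated mouse embryonic fibroblasts and then differentiated as floating aggregates called embryoid bodies. Every group carried the inducible Flag-Msgn1. Induced groups received 1 µg/ml doxycycline on day 2 of differentiation and uninduced groups received none, and samples of both kinds were taken at 12, 24 and 48 h. Each of the 6 groups has 3 arrays, 18 in all. Msgn1 is a basic helix-loop-helix factor of the presomitic mesoderm, and the comparison shows how its early expression changes the differentiating cells. No group received doxycycline without the transgene, so the drug and the factor cannot be told apart. Feeder cells were not removed by any step that the labels name.

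DNA methylation in mammals sits mainly on the cytosine of CpG pairs. Dnmt3a and Dnmt3b place new methyl groups, helped by Dnmt3l, a relative without catalytic activity, and Dnmt1 copies the pattern to the daughter strand after Uhrf1 has recognised half-methylated sites. The Tet enzymes oxidise methylcytosine, which is then lost by dilution at replication or replaced by base excision repair. In the mouse, Tet1, Tet2 and Dnmt3l are known as genes of pluripotent stem cells, and Dnmt3b is known for its high level in the postimplantation epiblast.

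Promoter sequence is shown for 3 of the genes whose signal fell. The family of factors to which Msgn1 belongs binds E-boxes, and the capitals below mark each CANNTG on either strand (the motif reads alike on both). The windows are the 250 bases before a RefSeq transcription start in the GRCm38.p6 assembly, written 5′ to 3′ on the strand of the gene. The Dnmt3b window, chr2:153649199-153649448 on the plus strand, is shown because both Dnmt3b probe sets were called lower at 48 h of induction. Dnmt3a (the third listed start, chr12:3891494-3891743, plus strand) and Dnmt3l (the second listed start, chr10:78049592-78049841, plus strand) are shown because both fell late in both arms and hold the same E-box letters. These starts were picked for the motif. The first and second Dnmt3a windows and the third Dnmt3l window hold no E-box, and the first Dnmt3l window holds 3. Tet1 and Tet2, which also fell in both arms, hold none in their only window.
Dnmt3b: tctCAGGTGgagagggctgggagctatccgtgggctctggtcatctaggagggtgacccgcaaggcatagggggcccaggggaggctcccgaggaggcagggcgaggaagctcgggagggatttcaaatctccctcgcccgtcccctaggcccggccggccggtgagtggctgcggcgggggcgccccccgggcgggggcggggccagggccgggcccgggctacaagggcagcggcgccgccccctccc
Dnmt3a: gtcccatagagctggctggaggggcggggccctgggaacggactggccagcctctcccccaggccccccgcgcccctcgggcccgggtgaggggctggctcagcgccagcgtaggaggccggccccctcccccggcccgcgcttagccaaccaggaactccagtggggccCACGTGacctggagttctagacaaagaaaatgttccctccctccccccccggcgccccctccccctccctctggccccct
Dnmt3l: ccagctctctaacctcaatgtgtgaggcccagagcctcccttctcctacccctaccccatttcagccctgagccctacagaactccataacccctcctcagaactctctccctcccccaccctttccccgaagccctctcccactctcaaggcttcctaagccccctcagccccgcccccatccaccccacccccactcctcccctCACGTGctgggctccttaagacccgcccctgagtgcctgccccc
The E-box in the Dnmt3b window reads CAGGTG and begins 247 bases before the start. In the Dnmt3a and Dnmt3l windows it reads CACGTG, 80 and 44 bases before the start. Of the 15 windows listed for the 8 genes, 9 held an E-box, where 66.2% of all 32851 windows of this length did. The windows differ widely in CpG pairs, from 2 in the first listed Dnmt1 window to 51 in Tet2, where the median of all windows was 6. Dnmt3b held 21, Dnmt3a 15 and Dnmt3l 4. A match describes the sequence and is not a bound site. In the same assembly Dnmt3b spans chr2:153649411-153687730, so its annotated start lies inside the window printed, and Dnmt3a spans chr12:3801559-3914443. Dnmt3l (chr10:78042287-78063622) and Tet1 (chr10:62804570-62887469) share a chromosome. Tet2 lies at chr3:133463677-133545136, Tet3 at chr6:83362373-83457208, Dnmt1 at chr9:20907206-20959888 and Uhrf1 at chr17:56303337-56323486.

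The arrays were alike in scale, with medians of 18.8 to 22.1 signal units. Replicates correlated at 0.988 to 0.993 over the kept probe sets, and none was a copy of another. Msgn1 read 44.5 to 76.8 on the 9 induced arrays and 4.69 to 25.2 on the uninduced arrays, so each array matched its label; whether its probe set sees the transgene or the endogenous gene is not given in the sources used here. All 9 naive stem cell markers and all 7 primed epiblast markers had group means above the filter in every group, and 9 feeder fibroblast genes were measured too. On the 24 h arrays numbered 3, 11 of the 19 member probe sets were above the mean of the other 2 arrays in both arms. Of the rest, 4 were below in both and 4 were mixed. No such count was made for other arrays or over all probe sets, so it cannot show that these arrays stood apart. Member calls that turned on leaving out both of those arrays are given with and without them. The labels call the replicates biological without saying what was separate, so p-values measure the spread between these samples.

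A change below is the difference between 2 group means on the log2(signal + 32) scale, with the standard error (SE) of the limma fit. Folds refer to signal + 32, and a change was called at a Benjamini-Hochberg adjusted p under 0.05 over all 26049 probe sets. Calls are from a fit of the 6 groups to all 18 arrays with no replicate block, unless another setting is named. In that fit no member probe set was called higher in any of the 11 comparisons; other settings called some higher, as given under Dnmt3b, Dnmt3a, Dnmt1, Uhrf1 and Tet2. None of the 19 was called between arms at 12 h, where 0.649% of all probe sets were called, and none at 24 h, where 2.31% were. At an unadjusted p under 0.05 there were 3 at 12 h and 4 at 24 h. The share of all probe sets at that p was not counted, so these counts have no baseline. A fit with the replicate number within each time as a block called 1 at 12 h and 1 at 24 h, both Dnmt3l. It called 238 and 755 of 26049 probe sets. By 48 h of induction 2 were called, both lower and both of Dnmt3b, which is 10.5% of the members against 8.85% of all probe sets called either way and 3.9% called lower. That count was 4 without uninduced 48 h replicate 2, the added probe sets being 2 of Dnmt3a. Without induced 48 h replicate 2 it was 6, the added ones being 2 of Dnmt3a and 1 of Tet1 (lower) and 1 of Tet2 (higher). Over all probe sets these settings called 1909 and 2130, against 2305 with all arrays.

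Differentiation moved more of them than induction did in number of calls, though no test compared the counts. In uninduced bodies 3 fell from 12 h to 24 h (2.39% of all probe sets called, 1.08% lower), 6 from 24 h to 48 h (19.2% called, 8.46% lower) and 9, of 5 genes, over the whole interval (27.1% called, 11.4% lower). In induced bodies 4 fell from 12 h to 24 h (10.1% called, 3.96% lower), 8 from 24 h to 48 h (20.2% called, 9.38% lower) and 13, of 6 genes, over the whole interval (34.5% called, 14.9% lower). The median member changed by -0.37 from 12 h to 48 h without induction and by -0.61 with it, where the medians over all probe sets were 0.02 and 0.02. The count of 4 in induced bodies from 12 h to 24 h was 7 without induced 24 h replicate 3 (2786 of all probe sets called, against 2629). With both 24 h arrays numbered 3 left out, a setting chosen after seeing the data, the 24 h against 12 h counts were 5 without and 7 with induction. Calls over all probe sets rose too, from 623 to 1516 without and from 2629 to 3468 with induction. Comparisons of an arm over time share arrays with the induction comparisons.

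**Figure D1:**
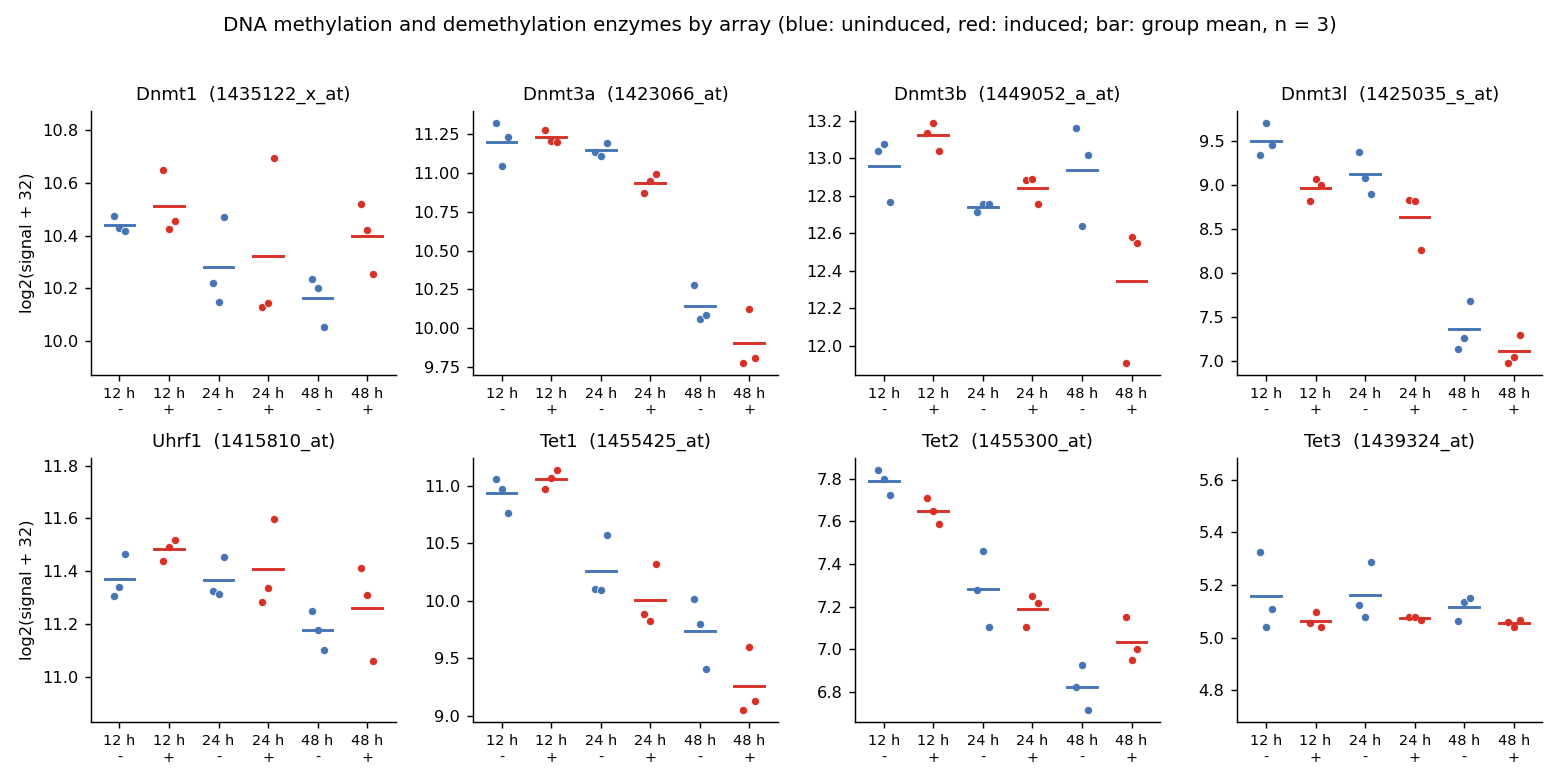
Signal of each gene's brightest probe set on every array, as log2(signal + 32) on the vertical axis, in the 6 groups (- uninduced, + induced) along the horizontal axis. Points are arrays, bars are means of 3 arrays, and each panel has its own scale of at least 1 log2 unit. Dnmt3a, Dnmt3l, Tet1 and Tet2 step down with time in both arms, Dnmt3b is lowest in the 48 h induced group, and Tet3 lies near the floor of 5.

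Dnmt3b, which methylates DNA de novo in the epiblast, was called lower in induced than in uninduced bodies at 48 h on both of its probe sets. On 1418351_a_at the uninduced arrays read 4937, 5168 and 5184 at 12 h, 6309, 6272 and 5679 at 24 h, and 5494, 5085 and 5417 at 48 h. The induced arrays read 4538, 4522 and 4023 at 12 h, 5421, 5318 and 5133 at 24 h, and 2166, 3079.9 and 2222 at 48 h. All 3 induced arrays lay below all 3 uninduced arrays at each time, by a small margin at 12 h and 24 h and a wide one at 48 h. The difference at 48 h was -1.11 ± 0.0905 (SE, n = 3 per group; limma adjusted p = 2.67e-08), a 2.15-fold lower signal. At 12 h it was -0.23 ± 0.0905 (limma adjusted p = 0.384) and at 24 h -0.20 ± 0.0905 (limma adjusted p = 0.344), neither of which was called. In bulk RNA fewer cells of a type and less RNA per cell cannot be told apart.

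The other Dnmt3b probe set gave a smaller 48 h difference in the same direction. On 1449052_a_at the uninduced arrays read 8389, 8619 and 6927 at 12 h, 6678, 6895 and 6887 at 24 h, and 9134, 6344 and 8259 at 48 h. With induction they read 8975, 9305 and 8393 at 12 h, 7522, 7554 and 6896 at 24 h, and 3816, 6089 and 5965 at 48 h. Again the 48 h groups did not overlap, but uninduced replicate 2 and induced replicate 2 were close (6344 and 6089). The 48 h difference was -0.59 ± 0.134 (limma adjusted p = 0.00516), a 1.51-fold lower signal, while at 12 h (0.16 ± 0.134) and 24 h (0.10 ± 0.134) the differences lay above 0 and were not called. So the 2 probe sets disagree in sign before 48 h, with no called value on either. Which exons or transcripts each probe set reads is not given in the sources used here.

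The induction effect on Dnmt3b also differed between times. The effect at 48 h minus that at 12 h was -0.88 ± 0.128 on 1418351_a_at (limma adjusted p = 0.000199) and -0.75 ± 0.189 on 1449052_a_at (limma adjusted p = 0.0257), the 2 calls among the 19 members, where 3.5% of all probe sets were called and 1.64% lower. Against 24 h it was -0.91 ± 0.128 on 1418351_a_at (limma adjusted p = 0.000307) and -0.69 ± 0.189 on 1449052_a_at (limma adjusted p = 0.0639), so 1 of 19 was called, where 1.93% of all probe sets were called and 0.967% lower. The call on 1449052_a_at against 12 h was lost without any 1 of 6 arrays, namely uninduced 12 h replicate 3, induced 12 h replicates 1 and 2, uninduced 48 h replicates 1 and 3, and induced 48 h replicate 1, with adjusted p of 0.0506 to 0.0872. The 24 h count of 1 was 3 without uninduced 48 h replicate 2 or induced 48 h replicate 2. It was 2 without uninduced 24 h replicate 3 or induced 48 h replicate 3. Over all probe sets these settings called, in that order, 415, 588, 482 and 345, against 504 with all arrays.

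In uninduced bodies no change of Dnmt3b over time was called, except that the compared groups alone gave a call from 24 h to 48 h on 1418351_a_at (-0.19, limma adjusted p = 0.0454). From 12 h to 48 h it changed by 0.06 (95% interval -0.12 to 0.25) on 1418351_a_at and by -0.02 (-0.30 to 0.26) on 1449052_a_at. In induced bodies it fell over the same interval by 0.82 ± 0.0905 (limma adjusted p = 3.1e-07) and 0.78 ± 0.134 (limma adjusted p = 9.18e-05). From 24 h to 48 h of induction the falls were 1.10 ± 0.0905 (limma adjusted p = 1.06e-08) and 0.50 ± 0.134 (limma adjusted p = 0.0104); the second, on 1449052_a_at, was lost without induced 48 h replicate 1 (-0.28, adjusted p = 0.089). The 2 probe sets had opposite signs from 12 h to 24 h of induction, 0.28 ± 0.0905 on 1418351_a_at (limma adjusted p = 0.0539) and -0.28 ± 0.134 on 1449052_a_at (limma adjusted p = 0.206). The first was called higher with the replicate block (adjusted p = 0.0485), quantile normalization (0.39, adjusted p = 0.0101), the filter at the 60th percentile (adjusted p = 0.0429) and the compared groups alone (adjusted p = 0.0212), and the compared groups alone called the second lower (adjusted p = 0.017). On 1418351_a_at the order of group means at its extremes was uninduced 24 h highest (6086) and induced 48 h lowest (2489).

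Markers of the primed epiblast, where Dnmt3b is known to be high, were mostly lower with it in induced bodies at 48 h. Of the 7 markers, 6 were lower in induced than in uninduced bodies at 48 h. They include Fgf5 (-1.32 ± 0.138), Pou3f1 (-1.28 ± 0.0825), Slc7a3 (-1.14 ± 0.127) and Otx2 (-1.05 ± 0.0922). Lef1 (0.73 ± 0.127), which also acts in Wnt signalling, was higher. The summed signal of the 7 markers was 8013 to 8495 on the uninduced 48 h arrays and 4198 to 5182 on the induced ones. At 24 h, 3 were lower and 1 higher with induction, though Dnmt3b was not called there, and at 12 h none was called. From 12 h to 48 h without induction 3 of the markers were called higher and 3 lower, while Dnmt3b was not called. The part of cell makeup in the Dnmt3b difference was not tested.

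**Figure D2:**
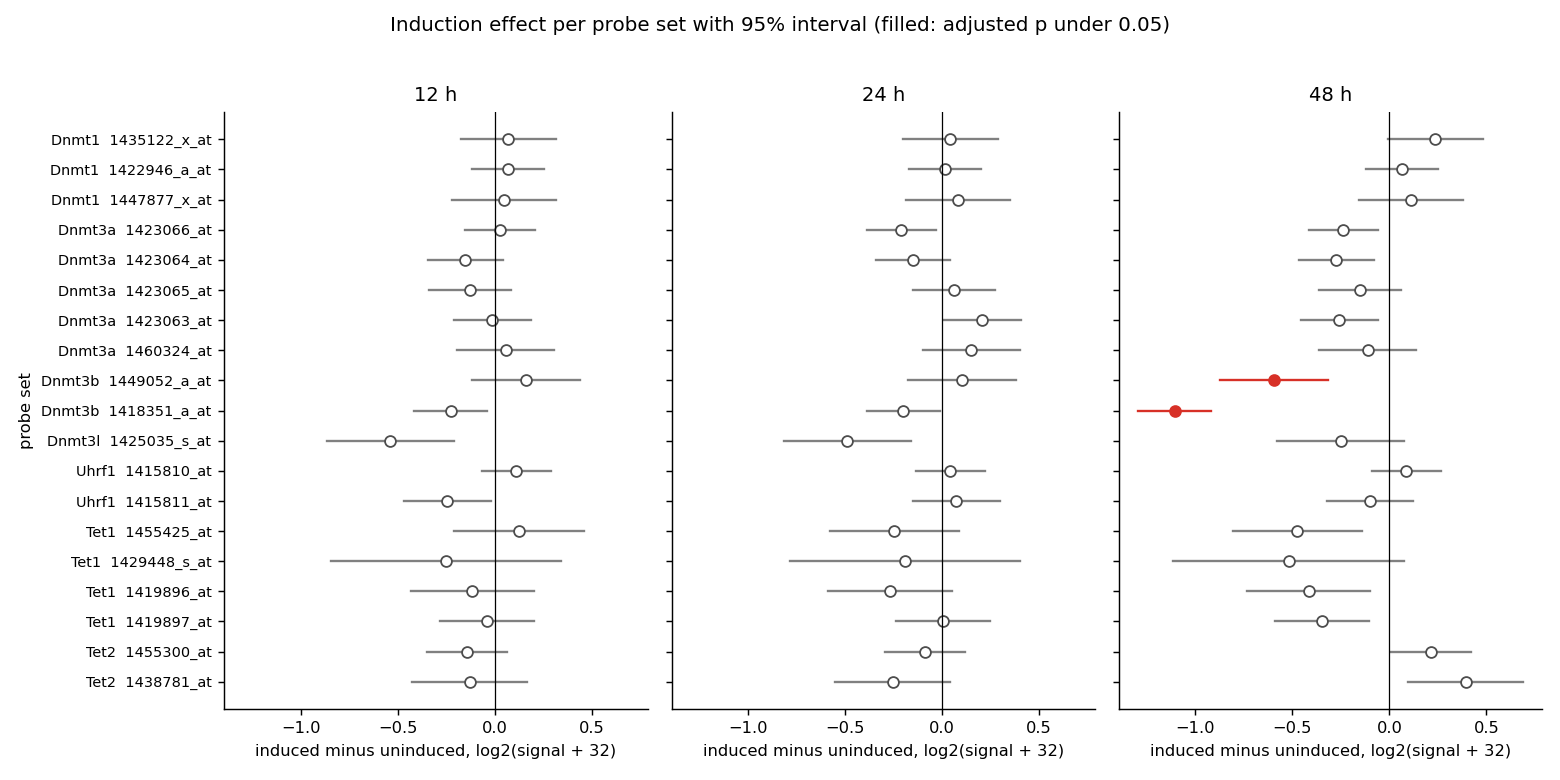
Induced minus uninduced in log2(signal + 32) for each of the 19 kept probe sets (rows) at 12, 24 and 48 h (panels). Points are differences of means of 3 arrays, lines are 95% intervals of the fit, and filled red points passed an adjusted p of 0.05. Both Dnmt3b probe sets are filled at 48 h (-1.11 and -0.59) and none is filled at 12 h or 24 h.

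Dnmt3a, the other de novo methyltransferase, fell late in both arms on 3 of its 5 probe sets. On the brightest, 1423066_at, the uninduced arrays read 2531, 2085 and 2377 at 12 h, 2222, 2177 and 2313 at 24 h, and 1208, 1035 and 1056 at 48 h. Those with induction read 2454, 2334 and 2323 at 12 h, 1842, 1945 and 2006 at 24 h, and 846, 1085 and 865 at 48 h. Every 48 h array lay below every earlier array. From 12 h to 48 h the signal fell by 1.06 ± 0.0859 without induction (2.09-fold, limma adjusted p = 5.34e-09) and by 1.33 ± 0.0859 with it (2.51-fold, limma adjusted p = 8.21e-11). Without induction the step from 12 h to 24 h was -0.05 and that from 24 h to 48 h -1.01 ± 0.0859 (limma adjusted p = 2.76e-08).

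The probe set 1423064_at showed the same late step. Its uninduced arrays read 1139, 1137 and 1198 at 12 h, 1160.5, 1108 and 1105 at 24 h, and 472, 365 and 510.4 at 48 h. Its induced arrays read 1053, 1039.6 and 1025 at 12 h, 1036, 999 and 994 at 24 h, and 324, 409.9 and 358 at 48 h. Here too no 48 h array reached any earlier one, and the 48 h arms overlapped (365 uninduced, 409.9 induced). The fall from 12 h to 48 h was 1.32 ± 0.0922 without induction (2.49-fold, limma adjusted p = 5.54e-10) and 1.44 ± 0.0922 with it (2.72-fold, limma adjusted p = 6.76e-11).

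The probe set 1423065_at fell less. Its uninduced arrays read 571, 578 and 578 at 12 h, 429, 469 and 534 at 24 h, and 342, 319 and 288 at 48 h. Its induced arrays read 548, 509.7 and 514 at 12 h, 476, 509.7 and 509.6 at 24 h, and 249, 349 and 255 at 48 h. The fall over the interval was 0.81 ± 0.101 (1.75-fold, limma adjusted p = 2.93e-06) without and 0.83 ± 0.101 (1.77-fold, limma adjusted p = 1.28e-06) with induction, nearly equal in the 2 arms.

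The remaining Dnmt3a probe sets did not follow. On 1423063_at the uninduced arrays read 399.7, 439 and 409.6 at 12 h, 347, 334 and 410.2 at 24 h, and 476, 354 and 414 at 48 h. Its induced arrays read 406, 401 and 430.3 at 12 h, 386, 429 and 459 at 24 h, and 346, 341 and 331 at 48 h. This probe set changed by -0.01 from 12 h to 48 h without induction (95% interval -0.21 to 0.19) and fell by 0.26 ± 0.0956 with it (limma adjusted p = 0.0395). That call was lost whichever of the 6 arrays compared was left out (adjusted p = 0.0642 to 0.122), and the call of its fall from 24 h to 48 h of induction (0.30 ± 0.0956, limma adjusted p = 0.0315) was lost without induced 24 h replicate 2 or 3 or any of the 3 induced 48 h arrays (adjusted p up to 0.12), and with both 24 h arrays numbered 3 left out (-0.24, adjusted p = 0.0791). The dimmest, 1460324_at, had group means of 121 to 155 and changed by 0.26 ± 0.12 without and 0.09 ± 0.12 with induction from 12 h to 48 h, neither called with all arrays; without uninduced 48 h replicate 3 the first was called higher (adjusted p = 0.0466). From 24 h to 48 h without induction it changed by 0.28 ± 0.12 (limma adjusted p = 0.106), called higher without that same array (0.39, adjusted p = 0.0433) or with both 24 h arrays numbered 3 left out (0.36, adjusted p = 0.0488). The 5 probe sets of Dnmt3a therefore do not give 1 answer for the gene.

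Between arms at the same time no Dnmt3a probe set was called. At 48 h all 5 differences were below 0, from -0.27 ± 0.0922 on 1423064_at (limma adjusted p = 0.0714) to -0.11 ± 0.12 on 1460324_at. Without induced 48 h replicate 2, the induced array with the highest signal on 1423066_at, 1423064_at and 1423065_at, calls appeared for 1423064_at (adjusted p = 0.0245) and 1423066_at (adjusted p = 0.00801). Without uninduced 48 h replicate 2, calls appeared for 1423063_at (adjusted p = 0.0261) and 1423064_at (adjusted p = 0.00277). The brightest probe set fell from 12 h to 24 h of induction by 0.29 ± 0.0859 (limma adjusted p = 0.0336), a call lost without any 1 of 5 of the 6 arrays (adjusted p up to 0.12; induced 24 h replicate 3 was the exception), where the uninduced arm had no call. The effect at 48 h minus that at 24 h was called for no Dnmt3a probe set without a block. For 1423063_at (-0.47 ± 0.135, limma adjusted p = 0.0886) the replicate block gave a call (-0.47 ± 0.115, limma adjusted p = 0.0439), as did the fit without uninduced 24 h replicate 3 or uninduced 48 h replicate 2 (adjusted p down to 0.0269).

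Dnmt3l, the catalytically inactive partner of Dnmt3a and Dnmt3b, had the largest mean change of any member from 12 h to 48 h in both arms, though with induction it (-1.86 ± 0.158) and Tet1 (-1.80 ± 0.16 on 1455425_at) differed by less than the SE. Tet1 changed more from 12 h to 24 h. Its 1 probe set, 1425035_s_at, has a suffix that marks probes shared between transcripts. The uninduced arrays read 616, 806 and 671 at 12 h, 635, 511 and 448 at 24 h, and 109, 122 and 173 at 48 h. The induced arrays read 422, 505 and 480.2 at 12 h, 422, 419.7 and 275 at 24 h, and 94.5, 100.2 and 126 at 48 h. All 48 h arrays lay below all earlier arrays, and at 12 h and 24 h all induced arrays lay below all uninduced arrays. Without induction the signal fell 4.41-fold from 12 h to 48 h (-2.14 ± 0.158, limma adjusted p = 1.21e-09), of which -1.76 ± 0.158 came after 24 h (limma adjusted p = 5.15e-08). With induction it fell 3.62-fold (-1.86 ± 0.158, limma adjusted p = 5.7e-09).

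The induction differences of Dnmt3l were called in some settings. With all groups in the fit and no block they were not called, at -0.54 ± 0.158 at 12 h (limma adjusted p = 0.166), -0.49 ± 0.158 at 24 h (limma adjusted p = 0.129) and -0.25 ± 0.158 at 48 h (limma adjusted p = 0.414). The 12 h difference was called lower with the compared groups alone (-0.54 ± 0.0976, limma adjusted p = 0.0278) and with the replicate block (limma adjusted p = 0.0044), although the numbers were not taken to pair arrays at 12 h. At 24 h the numbers were taken to pair arrays, on weak evidence. There a correlation between differently numbered arrays (0.207) exceeded the same-number values of 0.197 and 0.119. The fit with the replicate number as a block called the 24 h difference (-0.49 ± 0.0841, limma adjusted p = 0.0039). With both 24 h arrays numbered 3 left out, the 2 lowest of their groups, the difference was -0.41 ± 0.157 and not called (limma adjusted p = 0.294). The effect at 48 h did not pass a test of difference from that at 12 h (0.29 ± 0.223, limma adjusted p = 0.621).

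Maintenance of methylation is the work of Dnmt1 and Uhrf1, and for neither gene was the brightest probe set called in any comparison in the fit of all groups without a block. For Dnmt1 the brightest, 1435122_x_at, read 1391, 1346 and 1336 at 12 h, 1161, 1104 and 1386 at 24 h, and 1174, 1145 and 1029 at 48 h without induction. With induction it read 1575, 1342 and 1374 at 12 h, 1087, 1099 and 1625 at 24 h, and 1437, 1338 and 1191 at 48 h. At 48 h the induced arrays all lay above the uninduced ones, by a difference that was not called (0.24, 95% interval -0.01 to 0.48, limma adjusted p = 0.268) except with the replicate block (limma adjusted p = 0.03). The compared groups alone gave a called fall from 12 h to 48 h without induction (-0.28, limma adjusted p = 0.00692). Replicate 3 at 24 h was the highest of its group in both arms, and leaving both out gave a called fall from 12 h to 24 h of induction (-0.37 ± 0.0817, limma adjusted p = 0.00429) and a called rise from 24 h to 48 h (0.26 ± 0.0817, limma adjusted p = 0.0269), neither called with them. The first was also called without induced 24 h replicate 3 alone (adjusted p = 0.0148).

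Of the 3 Dnmt1 probe sets only 1447877_x_at was called in any comparison in that fit. It read 795, 747 and 753 at 12 h, 542, 538 and 719 at 24 h, and 616, 589 and 502 at 48 h without induction. With induction it read 914, 735 and 741 at 12 h, 539, 603 and 772 at 24 h, and 521, 689 and 645 at 48 h. In both arms the 48 h arrays lay below the 12 h arrays. The fall was 0.41 ± 0.129 without (1.33-fold, limma adjusted p = 0.0202) and 0.35 ± 0.129 with induction (1.28-fold, limma adjusted p = 0.0387). The uninduced call was lost without uninduced 12 h replicate 1 or uninduced 48 h replicate 3 (adjusted p up to 0.103), and the induced call without induced 12 h replicate 1 or induced 48 h replicate 1 or 3 (adjusted p up to 0.21). Its changes from 12 h to 24 h were -0.35 ± 0.129 without and -0.31 ± 0.129 with induction. Calls appeared only without replicate 3 of the 24 h group (adjusted p = 0.042 and 0.0267) or with both 24 h arrays numbered 3 left out. In that last setting the changes were -0.48 and -0.45 (limma adjusted p = 0.0142 and 0.00902). The last, 1422946_a_at, had group means of 1123 to 1351 and changed by -0.19 ± 0.0892 and -0.20 ± 0.0892 from 12 h to 48 h, not called. The suffix of the 1435122_x_at and 1447877_x_at probe sets marks probes that may also bind other transcripts.

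Uhrf1, the reader of half-methylated DNA that brings Dnmt1 to replicating chromatin, was called in none of the 11 comparisons on either probe set in the same fit. On 1415810_at the uninduced arrays read 2497, 2559.7 and 2797 at 12 h, 2536, 2514 and 2775 at 24 h, and 2400.1, 2286 and 2162 at 48 h. Induced arrays read 2740.2, 2846 and 2904 at 12 h, 2461, 2555 and 3069.9 at 24 h, and 2696, 2509 and 2102 at 48 h. Arms overlapped at every time, and the induction difference at 48 h was 0.09 with a 95% interval of -0.09 to 0.26. From 12 h to 48 h the changes were -0.19 ± 0.0856 without (limma adjusted p = 0.101) and -0.22 ± 0.0856 with induction (limma adjusted p = 0.0504), the latter called without induced 48 h replicate 1 (adjusted p = 0.0158). The compared groups alone called the first (adjusted p = 0.0309), and the filter at the 60th percentile, gene level values and a robust trend called the second (adjusted p = 0.0412 to 0.048). On 1415811_at, with group means of 286 to 364, the corresponding changes were above 0 at 0.08 ± 0.107 and 0.22 ± 0.107 and were not called; the second was called higher without induced 12 h replicate 1 (adjusted p = 0.0363), as was the change from 12 h to 24 h of induction (0.38, adjusted p = 0.0492). S phase genes, with which Uhrf1 and Dnmt1 are known to be expressed, had a summed signal over 14 genes of 29370.2 to 29513 on the uninduced 12 h arrays, 27248 to 28906 at 48 h without and 26184 to 28446 with induction, and their part in the Dnmt1 fall was not tested.

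**Figure D3:**
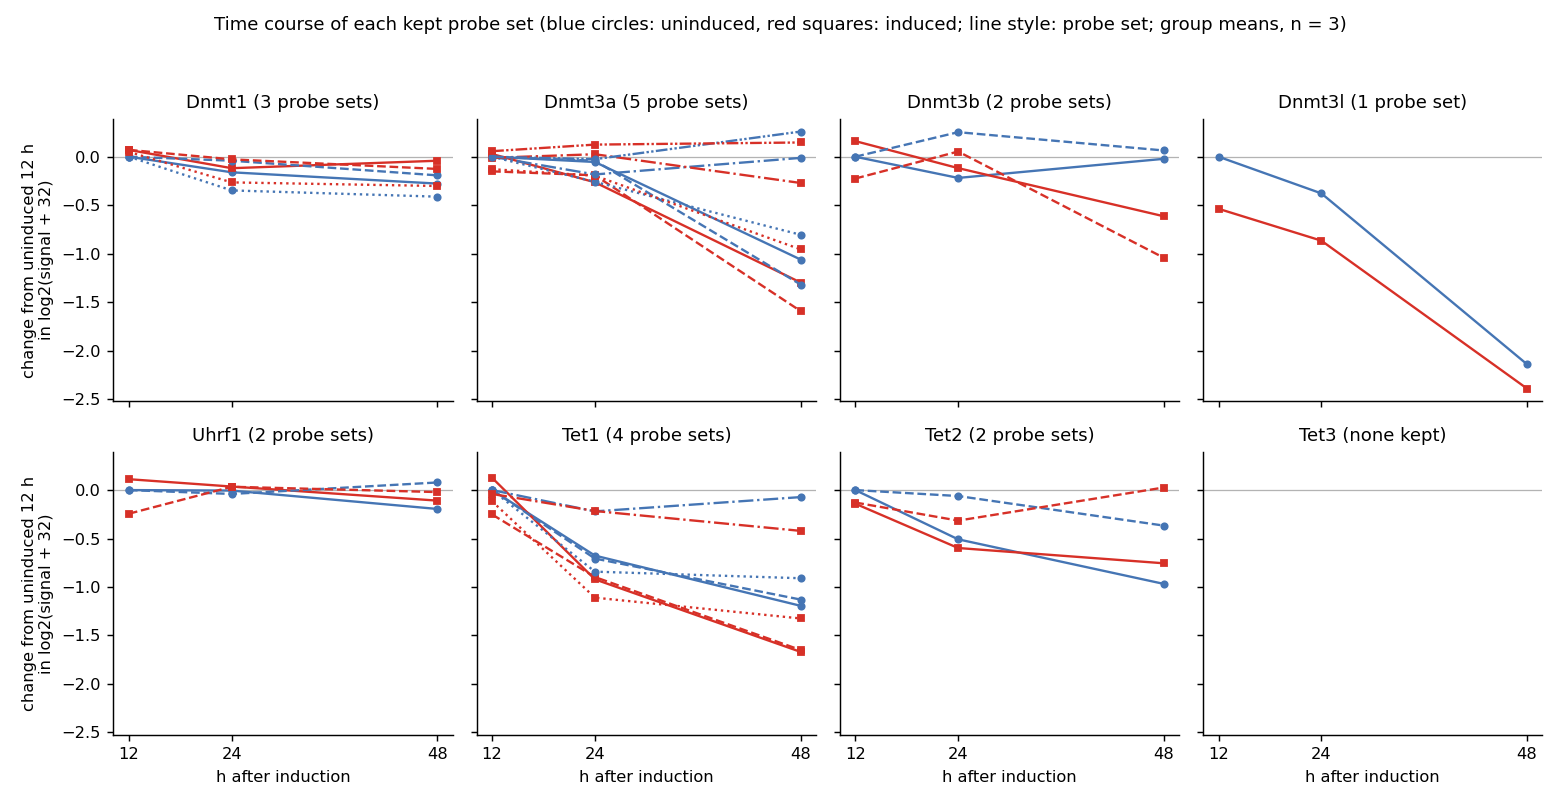
Group means of each kept probe set over time, as the change in log2(signal + 32) from the uninduced 12 h mean (vertical axis) against hours after induction (horizontal axis). Blue circles are uninduced and red squares induced means of 3 arrays, and line styles separate the probe sets of a gene. Dnmt3l falls furthest (-2.14 uninduced from 12 h to 48 h), 3 Dnmt3a lines fall after 24 h while 2 stay near 0, and Tet1 is already lower at 24 h.

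Tet1, the dioxygenase that is abundant in stem cells, fell in both arms on 3 of 4 probe sets, with called falls by 24 h on 2 of them. On the brightest, 1455425_at, the uninduced arrays read 2105, 1973 and 1710.2 at 12 h, 1067, 1061 and 1492 at 24 h, and 1001, 857 and 646 at 48 h. Induced arrays read 1975, 2118 and 2219 at 12 h, 911, 878 and 1249 at 24 h, and 499.6, 745 and 529.5 at 48 h. All 24 h arrays lay below all 12 h arrays, and within each arm all 48 h arrays lay below all 24 h arrays. From 12 h to 48 h the signal fell by 1.19 ± 0.16 without (2.29-fold, limma adjusted p = 6.81e-06) and by 1.80 ± 0.16 with induction (3.47-fold, limma adjusted p = 1.28e-08). The first step, from 12 h to 24 h, was -0.68 ± 0.16 without (limma adjusted p = 0.028) and -1.05 ± 0.16 with induction (limma adjusted p = 0.000249).

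Single arrays decided some of the uninduced steps of 1455425_at. The call from 12 h to 24 h was lost without uninduced 12 h replicate 1 or 2 or uninduced 24 h replicate 1 or 2 (adjusted p up to 0.132). The later step (-0.52 ± 0.16, limma adjusted p = 0.0263) was lost without uninduced 24 h replicate 3 or uninduced 48 h replicate 2 or 3 (adjusted p up to 0.159), and with both 24 h arrays numbered 3 left out it was -0.36 ± 0.146 (limma adjusted p = 0.0958). The induced step from 24 h to 48 h (-0.75 ± 0.16, limma adjusted p = 0.00174) kept its call in each setting tried.

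The probe set 1419896_at had its called fall by 24 h. Its uninduced arrays read 531, 542 and 450.3 at 12 h, 219, 248 and 352 at 24 h, and 315, 244 and 214 at 48 h. Its induced arrays read 492, 426 and 479 at 12 h, 184, 196 and 282 at 24 h, and 187, 201 and 162 at 48 h. By 24 h the fall was 0.84 ± 0.152 without (1.79-fold, limma adjusted p = 0.00546) and 0.99 ± 0.152 with induction (1.99-fold, limma adjusted p = 0.000253). From 24 h to 48 h it changed by -0.07 ± 0.152 and -0.21 ± 0.152, neither called.

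On 1429448_s_at the arrays of a group were further apart. Its uninduced arrays read 1667, 862 and 741 at 12 h, 563, 473 and 868 at 24 h, and 527, 478 and 361 at 48 h. Its induced arrays read 825, 738 and 1024 at 12 h, 376, 410.0 and 977 at 24 h, and 333, 325 and 260.2 at 48 h. The third 24 h array was the highest of its group in both arms, at 868 and 977. From 12 h to 48 h the fall was 1.13 ± 0.286 without (2.19-fold, limma adjusted p = 0.00482) and 1.40 ± 0.286 with induction (2.64-fold, limma adjusted p = 0.000544). With both of those arrays left out, the falls by 24 h were called as well (-0.94 ± 0.224, limma adjusted p = 0.0171, and -1.06 ± 0.224, limma adjusted p = 0.00334), the induced one also without induced 24 h replicate 3 alone (adjusted p = 0.00893). The induced change from 24 h to 48 h (-0.75, adjusted p = 0.0695) was called without induced 24 h replicate 1 or 2 (adjusted p = 0.0292 and 0.0494).

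The fourth Tet1 probe set, 1419897_at, was dim. Its uninduced arrays read 25.1, 28.5 and 25.7 at 12 h, 21.6, 23.7 and 10.2 at 24 h, and 18.8, 29.3 and 23.0 at 48 h. Its induced arrays read 18.8, 24.9 and 31.5 at 12 h, 19.8, 15.7 and 19.4 at 24 h, and 11.1, 11.6 and 12.1 at 48 h. The last group lies below the filter signal of 13.2. A fall of 0.38 ± 0.117 from 12 h to 48 h of induction was called (limma adjusted p = 0.014) and was lost without induced 12 h replicate 3 (adjusted p = 0.0831). Without induction it changed by -0.07 ± 0.117.

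Induction differences of Tet1 at 48 h were all below 0 and none was called without a block in the fit of all groups. They were -0.48 ± 0.16 on 1455425_at (limma adjusted p = 0.0715), -0.52 ± 0.286 on 1429448_s_at (limma adjusted p = 0.33), -0.42 ± 0.152 on 1419896_at (limma adjusted p = 0.103) and -0.35 ± 0.117 on 1419897_at (limma adjusted p = 0.0689). On the last 3 the induced and uninduced arrays did not overlap, while on 1455425_at the induced array of 745 lay above the uninduced array of 646. The share of all probe sets without overlap was not counted, so a lack of overlap has no baseline, here or for other members. Leaving out either of these, induced 48 h replicate 2 or uninduced 48 h replicate 3, gave a call on 1455425_at (adjusted p = 0.0149 and 0.018). The replicate block called 1455425_at (adjusted p = 0.0119) and 1419896_at (adjusted p = 0.00783) lower, the compared groups alone 1429448_s_at (adjusted p = 0.0266), and a fit with no intensity trend 1419897_at (adjusted p = 0.0495). The effect at 48 h minus that at 12 h on 1455425_at was -0.60 ± 0.227 and was not called (limma adjusted p = 0.184), except with the replicate block (limma adjusted p = 0.0447). At 12 h and 24 h the 4 differences ran from -0.27 to 0.13.

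Tet2, a second oxidising enzyme of stem cells, fell in both arms. On 1455300_at the uninduced arrays read 197, 191 and 179 at 12 h, 123, 144 and 106 at 24 h, and 81.0, 89.6 and 73.1 at 48 h. The induced arrays read 177, 169 and 160.4 at 12 h, 106, 120.3 and 117 at 24 h, and 110.2, 91.4 and 96.1 at 48 h. Without induction the signal stepped down at each time with no overlap, and with induction the 24 h and 48 h arrays overlapped. The fall from 12 h to 48 h was 0.97 ± 0.0993 without (1.96-fold, limma adjusted p = 1.78e-07) and 0.61 ± 0.0993 with induction (1.53-fold, limma adjusted p = 4.38e-05). At 48 h all induced arrays lay above all uninduced ones, by 0.21 ± 0.0993, which was not called (limma adjusted p = 0.228), nor was the change of that effect since 12 h (0.35 ± 0.14, limma adjusted p = 0.216).

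The other Tet2 probe set and that of Tet3 were at the low end of the array. For 1438781_at the uninduced arrays spanned 11.8 to 33.9 and the induced arrays 12.2 to 43.5, and no comparison was called in the fit of all groups and arrays. Its change from 12 h to 48 h without induction (-0.37, adjusted p = 0.062) was called without uninduced 48 h replicate 3 (adjusted p = 0.0298), with quantile normalization (adjusted p = 0.0311) and with the compared groups alone (adjusted p = 0.0481). Its 48 h difference was 0.39 ± 0.143 (limma adjusted p = 0.0982), called higher without induced 48 h replicate 2 (adjusted p = 0.0212). Tet3, the family member known from the oocyte and from later tissues, was represented by 1439324_at, which read 0.883 to 8.05 over the 18 arrays and was not tested. A signal this low gives no level for the gene.

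The fall of Dnmt3a, Dnmt3l, Tet1 and Tet2 ran beside that of naive stem cell markers. Of 9 such genes 7 fell and 1 rose from 12 h to 48 h without induction, and their summed signal went from 6817 to 7238 down to 3280 to 3536. With induction 6 fell and 2 rose over the same interval, and at 48 h 5 were lower and 2 higher in induced bodies. Feeder fibroblast genes had a summed signal over 9 genes of 669 to 802 on the uninduced 48 h arrays and 916 to 971 on the induced ones, with 2 called higher and none lower. The genes of that sum differed. Uninduced and induced 48 h means were 112 and 225 for Col1a2 and 137 and 249 for Pdgfrb. Those of Dcn (56.4 and 35.4) and Lum (16.9 and 11.6) were lower with induction. Col1a1, Col3a1 and Thy1 were slightly higher, and Postn and Col6a1 nearly equal. Over time 1 of the 9 fell from 12 h to 48 h without induction (median change -0.21), and with induction 5 fell and 1 rose (median -0.37), from a summed signal of 976 to 1166 on the induced 12 h arrays. Presomitic mesoderm markers were called higher in induced bodies for 7 of 8 genes at 48 h. Of 4 germ cell genes with a kept probe set 3 fell from 12 h to 48 h without and 4 with induction. Of 8 extraembryonic endoderm genes listed 6 had a kept probe set, and of these 4 and 5 rose. Afp and Ttr, the others listed, had group means of 1.78 to 5.76 and 1.08 to 12.0, under the filter in every group. The part of these cell types in the members' changes was not tested.

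Signals that tracked the members most closely over the 18 arrays were looked up among 4444 candidate genes whose group means spanned at least 0.5 on the log2 scale, as a description over points that share groups and times. For Dnmt3a (1423066_at) these were Dppa2 (Pearson r = 0.982), Ydjc (r = 0.980) and Gclm (r = 0.980). For Dnmt3l they were Hspb1 (r = 0.984), Hmgxb4 (r = 0.984) and Mybl2 (r = 0.979). Dppa2, a gene of pluripotent cells, fell by 3.12 from 12 h to 48 h without induction, and Mybl2, a cell cycle transcription factor, fell by 1.42. Tet1 (1455425_at) was tracked by Zfp953 (r = 0.971), Slc38a2 (r = 0.965) and Tasor (r = 0.965), and Tet2 (1455300_at) by Trip12 (r = 0.949), Gpsm3 (r = 0.940) and Pnma5 (r = 0.932). Dnmt3b (1449052_a_at) had the loosest match, with Armc8 (r = 0.898), Vat1 (r = 0.882) and Cnot4 (r = 0.877). Dnmt1 and Uhrf1 did not span 0.5 and were not matched.

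Around the enzymes stand the readers, partners and repair factors of the pathway, 62 genes in 6 lists, of which 54 had a kept probe set with 1 gene. Few of them changed with induction. At 12 h and at 24 h 1 of the 54 was called, where 0.885% and 3.04% of all genes were called. It was Gadd45a, a stress protein linked to repair and demethylation. Its signal was lower in induced bodies by 0.43 ± 0.087 (limma adjusted p = 0.0197) and 0.38 ± 0.087 (limma adjusted p = 0.0182). At 48 h 2 were higher and 2 lower in induced than in uninduced bodies, where 11.1% of all genes were called. Gadd45a was again lower (-0.50 ± 0.087, limma adjusted p = 0.000414), as was Cdca7, the partner of the remodeller Hells in DNA methylation (-0.32 ± 0.0878, limma adjusted p = 0.0236). Gadd45g, of the Gadd45 family (0.68 ± 0.15, limma adjusted p = 0.00391), and Shmt2, which feeds one-carbon units toward the methyl donor (0.45 ± 0.114, limma adjusted p = 0.0124), were higher. The remaining 50 were not called, among them all 8 methyl-CpG readers and all 12 Tet partners and CpG-island binders measured. Tests of the effect between times called Cdca7 against 12 h (-0.50 ± 0.124, limma adjusted p = 0.023; 4.59% of genes called) and Gadd45g against 24 h (1.00 ± 0.212, limma adjusted p = 0.012; 2.53% of genes called).

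Differentiation changed more of the pathway. From 12 h to 48 h without induction 10 of the 54 rose and 18 fell, where 31.8% of all genes were called, and the median change was -0.09 against 0.01 over all genes. The largest were Dppa3, a protein that shields methylation in the early embryo (-1.51 ± 0.127, limma adjusted p = 9.11e-09), Gadd45a (-1.26 ± 0.087, limma adjusted p = 4.72e-10), Gadd45g (-1.20 ± 0.15, limma adjusted p = 2.58e-06) and Cxxc5, a CpG-binding protein, which rose (0.98 ± 0.0824, limma adjusted p = 9.22e-09). By list, 7 of 15 maintenance partners fell and 3 rose. The fallers include Hells (-0.49 ± 0.0864) and Atrx (-0.52 ± 0.105), and the risers include Cdca7l (0.62 ± 0.122). Of 12 base excision genes 4 fell and 1 rose, and of 8 readers 2 fell (Zbtb38 at -0.71 ± 0.159 and Mbd3 at -0.36 ± 0.0717) and 2 rose (Uhrf2 at 0.63 ± 0.124 and Zbtb4 at 0.42 ± 0.121). Of 6 methyl donor genes 2 fell, and Trdmt1, an RNA methyltransferase despite its Dnmt2 alias, was not called.

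With induction 8 rose and 20 fell over the same interval, where 39.8% of all genes were called. The largest were Dppa3 (-1.60 ± 0.127, limma adjusted p = 2.1e-09), Gadd45a (-1.33 ± 0.087, limma adjusted p = 8.98e-11), Cxxc5 (1.10 ± 0.0824, limma adjusted p = 8.72e-10) and Zbtb38, a zinc finger reader of methylated DNA (-0.84 ± 0.159, limma adjusted p = 0.000272). Methyl donor genes fell in 4 of 6 cases, among them Ahcy, which removes the product of methylation reactions (-0.28 ± 0.0779). Isocitrate dehydrogenases, whose product the Tet enzymes use, rose in both arms, Idh1 by 0.37 ± 0.1 without and 0.49 ± 0.1 with induction and Idh2 by 0.40 ± 0.108 and 0.52 ± 0.108. Uhrf2, a relative of Uhrf1, rose by 0.72 ± 0.124 with induction.

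**Figure D4:**
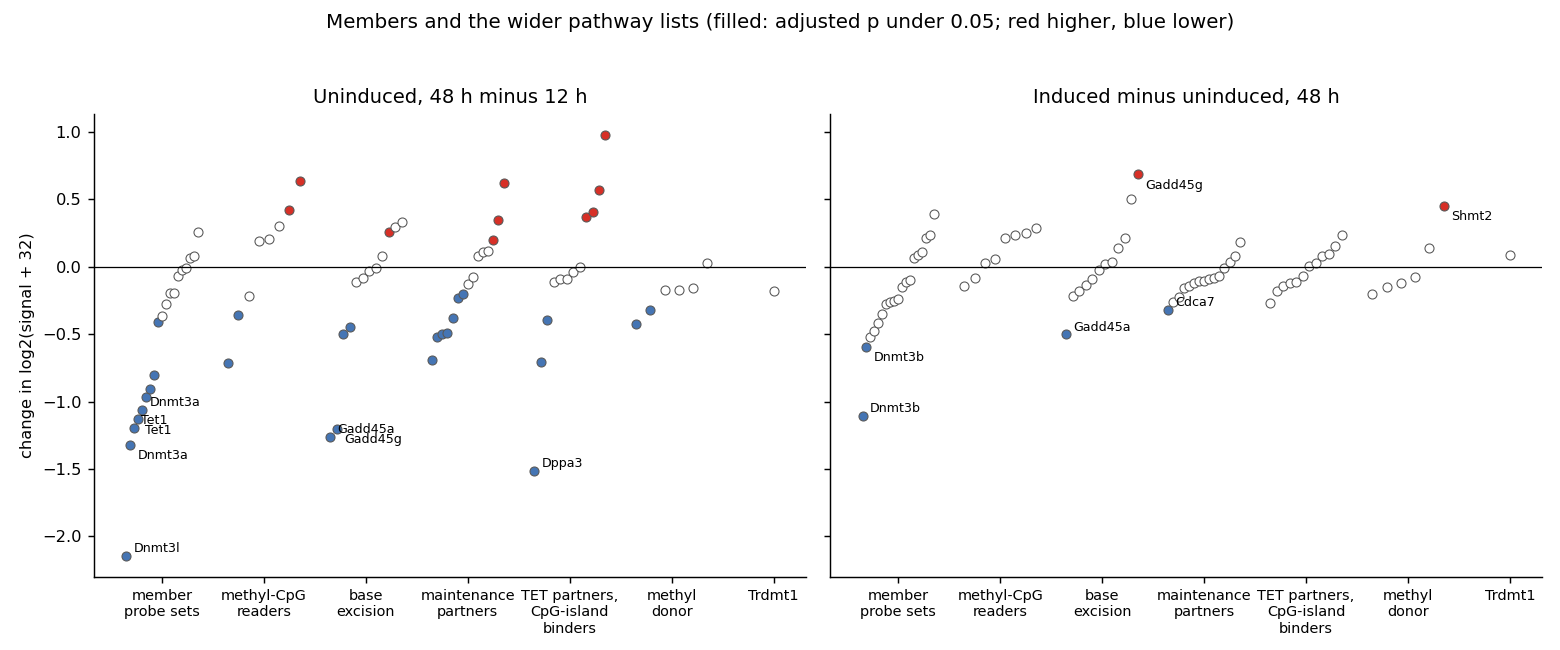
Change in log2(signal + 32) (vertical axis) of the 19 member probe sets and of the 54 measured pathway genes by list (horizontal axis), for uninduced 48 h minus 12 h (left) and induced minus uninduced at 48 h (right). Each point is a probe set or gene, filled where the adjusted p was under 0.05 (red higher, blue lower). Over time Dnmt3l (-2.14) and Dppa3 (-1.51) fall furthest, and on the right both Dnmt3b points lie below every filled pathway gene.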

How the data were processed

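RNA from 18 mouse embryoid body samples was labelled and measured on single-channel Affymetrix arrays, 3 for each of 6 groups taken from the sample titles. The deposited values were linear signal intensity, 1 for each of 45101 probe sets; GCOS was used, per the submitters' processing notes, with algorithm and version not given in the sources used here. The 2% trimmed mean of the deposited intensity, averaged over the 18 arrays, was 150. Scaling of each array by the authors was inferred from this value and was not shown array by array. No further normalization was applied. Such scaling would hide any change in total RNA per cell.

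Values were taken as log2(signal + 32), which understates changes of dim probe sets. After 64 control probe sets were left out, those with 1 gene were kept if a group mean reached the 40th percentile of all values (13.2). Limma 3.58.1 in R 4.3.3 fitted 1 mean per group with 12 residual degrees of freedom and an intensity trend, with 2-sided p adjusted by Benjamini-Hochberg over 26049 probe sets. Steps were tested on simulated data. Pathway genes (14351 genes in all) were read from their brightest kept probe set in the same fit; the 4 largest called changes per comparison were named, and others as examples of their list after their values were seen. The members, lists and tests were chosen with earlier results of these data known. Gene names and promoter sequences came from the platform annotation and RefSeq (GRCm38.p6; 34741 of 34945 probe sets matched by Entrez identifier).

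Whether replicate numbers pair arrays was checked by correlating deviations from the group mean. At 24 h the 3 same-number correlations between arms were 0.197, 0.119 and 0.442. The highest between different numbers was 0.207, above the values of 0.197 and 0.119, so the evidence of pairing is weak. The numbers were taken to pair arrays there because all 3 exceeded 0.1, which held in no other comparison. Other offsets, filters, normalizations, variance settings, a replicate block, gene-level values, compared groups alone and leaving out arrays were tried. For differences between arms, and for the effect between times, the replicate block was the replicate number within each time. For changes over time it was the replicate number shared by all times. Figures used Python 3.11.15 and matplotlib 3.10.9.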

Additional observations from a re-analysis of the deposited data

Results flagged for a closer look

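Without a replicate block, the induction effect on Dnmt3b passed the test of a difference between times. With the block so did Dnmt3a 1423063_at at 48 h minus 24 h (-0.47, limma adjusted p = 0.0439) and Tet1 1455425_at at 48 h minus 12 h (-0.60, limma adjusted p = 0.0447). The effect at 48 h minus that at 12 h was -0.88 ± 0.128 (SE) on 1418351_a_at and -0.75 ± 0.189 on 1449052_a_at (limma adjusted p = 0.000199 and 0.0257). The effect at 48 h minus that at 24 h was -0.91 ± 0.128 on 1418351_a_at (limma adjusted p = 0.000307). No outlier test was run within the groups of 3 arrays, though each array was left out in turn.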

How the results depend on the processing

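None of the 209 changes of member probe sets reversed a called direction; 37 of 48 calls and 127 of 161 values without a call kept their side of the threshold in every setting tried, and the cause of the others was not tested. With 3 arrays a group, small differences remain undetectable, and 1419897_at, 1438781_at and 1439324_at lie near the signal floor. Counts of called members moved as follows. For the effect at 48 h minus 12 h (2) the count was 1 with no filter, quantile normalization, gene level values, no intensity trend or a robust trend. Over all features these settings called, in that order, 773, 913, 776, 829 and 920, against 913 in the main fit. At gene level, where fewer features are tested, it was 1 for induced minus uninduced at 48 h (2), 4 for uninduced 48 h minus 12 h (9), 4 for induced 48 h minus 24 h (8) and 6 for induced 48 h minus 12 h (13). The replicate block gave 1 at 12 h (0), 1 at 24 h (0), 5 at 48 h (2) and 2 for the effect at 48 h minus 24 h (1; the added one was Dnmt3a 1423063_at), and moved no other count by over 1.5 times; the numbers were taken to pair arrays only at 24 h. The block called 238 of all probe sets at 12 h, 755 at 24 h and 2757 at 48 h, against 169, 602 and 2305. For the effect at 48 h minus 24 h it called 595 of all, against 504. Compared groups alone gave 1 at 12 h, Dnmt3l (173 of all probe sets called, against 169). With both 24 h arrays numbered 3 left out, chosen after seeing the data, 24 h minus 12 h had 5 calls (3) without and 7 (4) with induction. Over all probe sets that setting called 1516 (623) without and 3468 (2629) with induction. Leaving out 1 array at a time gave 2 to 6 for induced minus uninduced at 48 h, 0 to 0 at 12 h and 24 h, 2 to 4 and 3 to 7 for 24 h minus 12 h without and with induction, 1 to 2 for the effect at 48 h minus 12 h, and 1 to 3 for that minus 24 h; the other counts were 5 to 6 and 6 to 9 for 48 h minus 24 h, and 8 to 10 and 11 to 12 for 48 h minus 12 h.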
